A study of Mus musculus with 12 samples.

Results

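The 9 genes described here, Lrp2, Cubn, Amn, Dab2, Lrpap1, Lrp1, Vldlr, Lrp8 and Fcgrt, encode the receptors, adaptor and chaperone of endocytic uptake in extraembryonic endoderm. They were taken as every probe whose gene name in the array files was 1 of these symbols, which gave 18 probes of the 55681 probes on the array. Of the 18, 14 probes passed the filter on dim probes (in some group, every array had to read the probe well above background), and each of the 9 genes kept at least 1 probe among the 25938 that were tested. Of these, 4 (Lrp2, Cubn, Amn and Dab2) encode parts of 1 receptor complex and its adaptor. Megalin, the product of Lrp2, and cubilin, the product of Cubn, are giant receptors of the apical surface of visceral endoderm, yolk sac and kidney proximal tubule, where they take up lipoproteins, vitamin carriers and other maternal proteins. Cubilin has no membrane span of its own: amnionless, the product of Amn, brings it to the surface, and Dab2 is the clathrin adaptor that binds the tails of megalin and amnionless. Visceral and parietal endoderm both come from primitive endoderm, which Gata6 can induce from ES cells, and visceral endoderm is the more absorptive of the pair. Lrp1, Vldlr and Lrp8 encode smaller or broader relatives of megalin in the LDL receptor family, Lrpap1 their chaperone, and Fcgrt the receptor that carries immunoglobulin G.

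The study asked whether the transcription factor Sox7 is needed for that conversion. The 12 arrays were 1-colour 60-mer arrays in 4 groups of 3 arrays, all of mouse ES cells taken at day 4. All 4 groups carried Gata6GR, a fusion of full-length mouse Gata6 with the ligand-binding domain of the human glucocorticoid receptor, driven by the ubiquitous CAG promoter, so that dexamethasone (Dex) turns Gata6 on. Sox7 (+/-) ES cells and Sox7 (-/-) ES cells were kept without Dex, and Sox7 (+/-) XEN-like cells and Sox7 (-/-) XEN-like cells, named after extraembryonic endoderm stem cells, were the same lines with Dex. In the targeted allele a puromycin resistance cassette replaces the coding exons of Sox7. The control group therefore already lacked 1 copy of Sox7, and Sox7 (+/+) cells were not analysed here. The Sox7 (-/-) line came from a Sox7 (+/-) line by selection under more puromycin, so that each genotype stands for 1 line, and a difference between the genotypes cannot be told apart from a difference between those lines.

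The probes of Amn and Lrpap1 and 1 of the Cubn probes are shown first, since the largest differences between the genotypes were read by the Amn and Cubn probes and the Lrpap1 probes gave unlike answers. The Amn probe lies on the plus strand at chr12:112514095-112514243 of mm9 and spans 149 bases of genome for its 60 bases, which places it across a splice junction. The Cubn probe lies on the minus strand at chr2:13205609-13205668, and the Lrpap1 probe on the minus strand at chr5:35435982-35437504, where its 60 bases are spread over 1523 bases of genome.
Amn: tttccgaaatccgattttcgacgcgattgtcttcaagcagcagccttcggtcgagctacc
Cubn: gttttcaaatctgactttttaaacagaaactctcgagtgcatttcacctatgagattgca
Lrpap1: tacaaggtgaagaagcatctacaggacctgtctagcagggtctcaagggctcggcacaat

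The bases before the start sites of Cubn, Amn, Lrp2 and Dab2 are shown because these 4 genes differed most between the genotypes in their response to Dex. The sequences are from RefSeq promoters on GRCm38.p6, 250 bases up to the start and read along the gene: chr2:13491877-13492126 on the minus strand for Cubn, chr12:111270846-111271095 on the plus strand for Amn, chr2:69586030-69586279 on the minus strand for Lrp2, and chr15:6299539-6299788 on the plus strand for the first of the 2 listed starts of Dab2. Capitals mark the words GATAA, the core that GATA factors read, and ACAAT, a core read by Sox factors, both searched on both strands (TTATC and ATTGT on the other strand).
Cubn: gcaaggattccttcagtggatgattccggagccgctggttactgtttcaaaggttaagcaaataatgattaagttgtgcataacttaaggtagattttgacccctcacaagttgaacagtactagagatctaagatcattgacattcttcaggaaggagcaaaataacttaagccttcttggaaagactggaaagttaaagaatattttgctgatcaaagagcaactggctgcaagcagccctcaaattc
Amn: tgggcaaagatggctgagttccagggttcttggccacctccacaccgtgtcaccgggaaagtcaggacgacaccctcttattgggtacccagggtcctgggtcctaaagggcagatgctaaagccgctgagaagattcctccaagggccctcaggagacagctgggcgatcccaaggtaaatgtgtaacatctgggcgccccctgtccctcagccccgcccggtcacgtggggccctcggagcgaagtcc
Lrp2: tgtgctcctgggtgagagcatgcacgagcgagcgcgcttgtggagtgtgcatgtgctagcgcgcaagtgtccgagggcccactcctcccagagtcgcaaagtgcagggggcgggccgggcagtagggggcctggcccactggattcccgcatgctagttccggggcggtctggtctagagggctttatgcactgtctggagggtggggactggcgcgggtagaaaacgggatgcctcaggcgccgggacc
Dab2: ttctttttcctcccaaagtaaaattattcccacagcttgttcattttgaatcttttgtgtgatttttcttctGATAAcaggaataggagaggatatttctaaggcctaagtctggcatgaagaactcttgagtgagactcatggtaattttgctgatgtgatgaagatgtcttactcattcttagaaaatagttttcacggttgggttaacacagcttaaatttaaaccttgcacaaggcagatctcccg
In these 4 windows only the first Dab2 start held a GATAA, which begins 178 bases before the start. The 9 genes have 13 listed starts, of which 2 held GATAA (Dab2 and Lrpap1) and 2 held ACAAT (Lrp8 and Vldlr), against 22.6% and 27.7% of all 32851 listed starts. Cubn and Amn, whose levels moved together on these arrays, had unlike windows, with 39.6% G and C for Cubn and 61.2% for Amn. A word in a window is a description of its letters and not a binding site.

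The arrays passed a check of the genotype labels. Sox7 signal, given like all levels here as a multiple of the array's own 75th percentile (the relative signal), was 2.19 to 2.30 in Sox7 (+/-) ES cells and 4.91 to 6.90 in Sox7 (+/-) XEN-like cells, and was not well above background on any Sox7 (-/-) array. Replicates of a group correlated at 0.982 to 0.996, 41.7% to 52.3% of the probes of an array were well above background, and no spot was saturated. Sox7 (+/-) XEN-like replicate 3 stood apart: 6.05% of its tested probes lay over 2-fold above or below both other replicates, against 0.27% to 1.26% on the other 11 arrays, and the values of Lrp2, Cubn, Amn and Vldlr without it stand beside their results. For Dab2, Lrp1 and Lrpap1 the Dex responses in Sox7 (+/-) cells were 0.91, -1.99 and 0.83 without it, and no call of the 9 genes was lost in any of the 3 comparisons that use it. The endoderm regulators Gata4, Sox17, Foxa2 and Pdgfra rose with Dex in both genotypes. Of 10 ES cell markers, 7 fell with Dex in Sox7 (+/-) and 8 in Sox7 (-/-) cells. Nanog, Sox2 and Fgf4 were well above background on no XEN-like array, while the other 7 (Pou5f1, Zfp42, Esrrb, Klf4, Tdgf1, Dppa5a and Utf1) were so on all 6. Klf4 rose in Sox7 (+/-) cells, from a mean of 17.8 to 49.0, and Dppa5a had means of 523.5 and 587 there. Sox17 was also well above background without Dex, at 9.71 to 11.4 in Sox7 (+/-) and 11.0 to 12.2 in Sox7 (-/-) ES cells. The defining visceral genes Afp and Apoa1 passed the filter in no group. The arrays lay on 2 slides: the first held replicate 1 of the Sox7 (-/-) XEN-like cells and the 3 Sox7 (-/-) ES arrays, and the second the other 8, so that slide and genotype separate only through the Sox7 (-/-) XEN-like cells. The labels do not say that replicates were separate cultures, and the source names of the 3 Sox7 (+/-) ES arrays all carry replicate number 1, so p-values measure the spread between these arrays, which may be technical. In bulk RNA, fewer cells of a type and less RNA per cell cannot be told apart.

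The response to Dex differed between the genotypes for Cubn, Amn, Lrp2 and Dab2. Cubn and Amn fell with Dex in Sox7 (+/-) cells and rose in Sox7 (-/-) cells, and Lrp2 and Dab2 ended further above their ES level in Sox7 (-/-) cells. A gene was called where its brightest tested probe differed over 2-fold at an adjusted p under 0.05 (limma, Benjamini-Hochberg over the 25938 probes). With Dex, Sox7 (+/-) cells had 3 members called higher (Lrp2, Lrp8 and Vldlr), beside 10.9% of all tested probes, and 4 called lower (Amn, Cubn, Lrp1 and Fcgrt), beside 14%. Sox7 (-/-) cells had 6 called higher (Lrp2, Dab2, Cubn, Lrpap1, Amn and Vldlr), beside 14.5% of all probes, and 2 called lower (Lrp1 and Fcgrt), beside 14.3%. The median log2 difference of the 9 genes was 0.82 in Sox7 (+/-) and 1.52 in Sox7 (-/-) cells, beside 0.15 and 0.07 over all tested probes. The test of the difference between the 2 Dex responses called 4 genes higher in Sox7 (-/-) cells (Cubn, Amn, Lrp2 and Dab2), beside 6.64% of all probes, and none lower, beside 3.16% (0 lower at an unadjusted p under 0.05 by limma). Lrp8 and Fcgrt passed the filter on dim probes only through 1 group, Sox7 (+/-) XEN-like cells for Lrp8 and Sox7 (+/-) ES cells for Fcgrt, where their signal was high, so the filter leaned towards their calls and these support nothing. Among the 7 other genes, well above background on all 12 arrays, the calls were 5 with Dex in Sox7 (+/-) cells, 7 in Sox7 (-/-) cells and 4 for the difference between the responses. The median of that difference was 0.92 over the 9 genes and -0.09 over all probes. With the slide as a block the 4 differences were 3.75 for Cubn, 3.70 for Amn, 1.92 for Lrp2 and 1.59 for Dab2, all called.

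**Figure D1:**
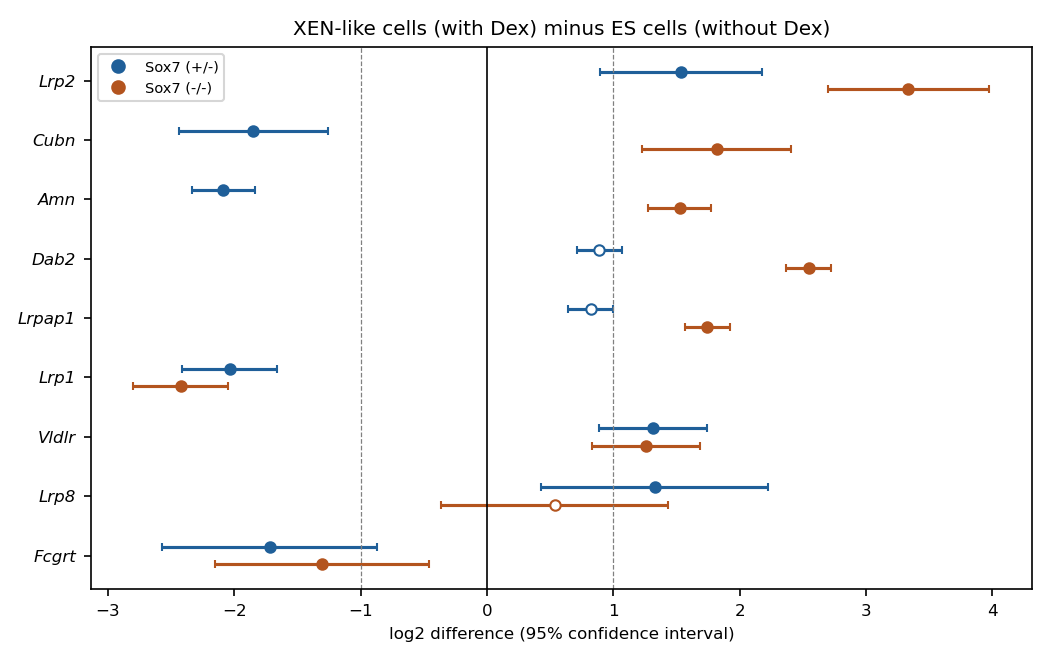
Dex response of the 9 genes as the log2 difference of XEN-like cells minus ES cells, in Sox7 (+/-) and Sox7 (-/-) cells, from the brightest tested probe of each gene. Points are limma estimates from 3 arrays a group, bars are 95% confidence intervals, filled points are called and dashed lines mark 2-fold. Cubn sits at -1.85 in Sox7 (+/-) and at 1.82 in Sox7 (-/-) cells, and Amn at -2.09 and 1.52, while Lrp1 and Vldlr lie side by side.

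Cubn and Amn, the receptor and its membrane partner, fell with Dex in Sox7 (+/-) cells and rose with Dex in Sox7 (-/-) cells. Relative signal of Amn was 22.3, 22.7 and 20.5 in the Sox7 (+/-) ES cells and 4.62, 4.82 and 6.05 in the Sox7 (+/-) XEN-like cells. It was 17.1, 16.7 and 15.1 in the Sox7 (-/-) ES cells and 49.6, 48.7 and 42.4 in the Sox7 (-/-) XEN-like cells. No 2 groups overlapped, and the order of the groups was Sox7 (-/-) XEN-like, Sox7 (+/-) ES, Sox7 (-/-) ES and Sox7 (+/-) XEN-like. Amn thus fell 4.25-fold in Sox7 (+/-) cells (log2 -2.09, 95% interval -2.34 to -1.84, adjusted p = 9.2e-08) and rose 2.88-fold in Sox7 (-/-) cells (log2 1.52, 1.28 to 1.77, adjusted p = 7.6e-07). The 2 responses differed by 3.61 on the log2 scale (3.26 to 3.96, adjusted p = 3.2e-07). Without Sox7 (+/-) XEN-like replicate 3 the Sox7 (+/-) response was -2.21 and the difference between the responses 3.73.

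Cubn was read by 2 tested probes. The brighter, at chr2:13197978-13198037 of mm9 on the minus strand, gave 44.5, 41.5 and 45.3 in Sox7 (+/-) ES cells and 8.74, 10.1 and 20.1 in Sox7 (+/-) XEN-like cells. Sox7 (-/-) ES cells had 19.2, 17.2 and 25.4, and Sox7 (-/-) XEN-like cells had 75.6, 70.6 and 68.9. The third Sox7 (+/-) XEN-like array, the 1 that stood apart, had about the level of the Sox7 (-/-) ES cells, and these were the only groups that overlapped. Cubn fell 3.61-fold with Dex in Sox7 (+/-) cells (log2 -1.85, -2.44 to -1.26, adjusted p = 0.00015), and the log2 difference was -2.22 without that array. In Sox7 (-/-) cells it rose 3.53-fold (log2 1.82, 1.23 to 2.41, adjusted p = 0.00014). The responses differed by 3.67 (2.84 to 4.50, adjusted p = 7.9e-05), and by 4.03 without the array. The second probe, whose sequence is printed above, read 0.223, 0.236 and 0.485 in Sox7 (+/-) XEN-like cells and 2.97, 2.69 and 2.92 in Sox7 (-/-) XEN-like cells, and its log2 Dex responses were -2.33 and 1.81. Both probes therefore showed the fall and the rise, and both were highest on the third array among the Sox7 (+/-) XEN-like cells.

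**Figure D2:**
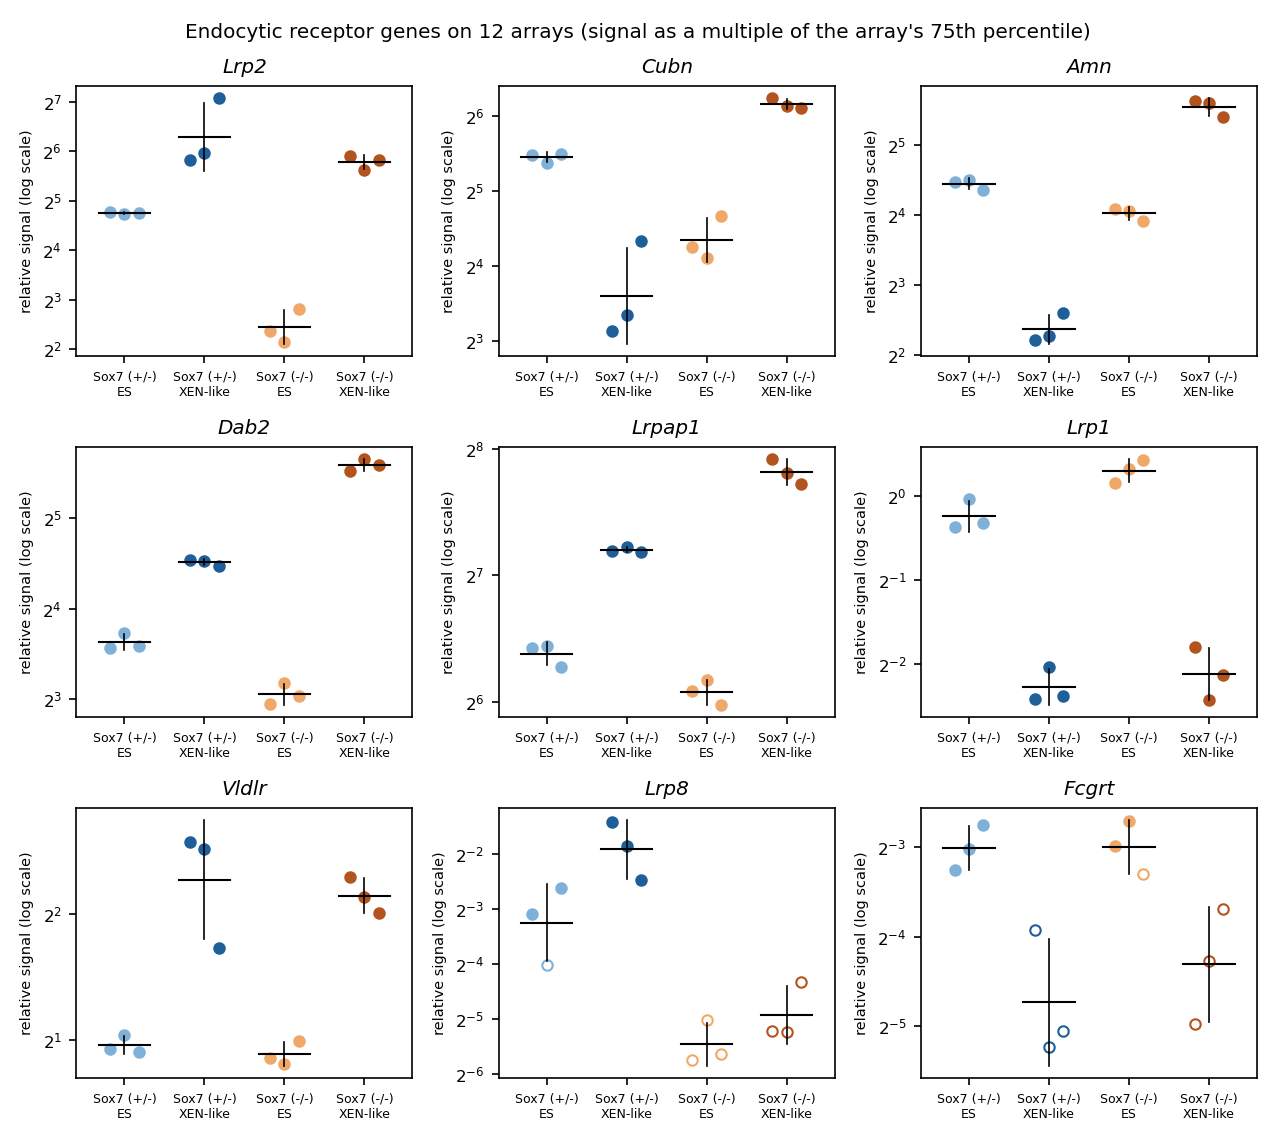
Relative signal of the brightest tested probe of each gene on each of the 12 arrays, on a log2-spaced axis, with points in replicate order, the horizontal line at the geometric mean and the vertical line at 1 SD of the log2 values. Open points were not well above background. Amn is lowest in Sox7 (+/-) XEN-like cells (4.62 to 6.05) and highest in Sox7 (-/-) XEN-like cells (42.4 to 49.6), and the third Sox7 (+/-) XEN-like point lies away from the other 2 for Lrp2, Cubn and Vldlr.

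Lrp2, which encodes megalin, rose with Dex in both genotypes and was lower in Sox7 (-/-) than in Sox7 (+/-) ES cells. Its brightest probe, at chr2:69262566-69262625 of mm9 on the minus strand, gave 27.2, 26.7 and 26.9 in Sox7 (+/-) ES cells and 56.8, 62.2 and 134 in Sox7 (+/-) XEN-like cells. Sox7 (-/-) ES cells had 5.15, 4.43 and 7.03, and Sox7 (-/-) XEN-like cells had 59.4, 49.3 and 56.2. The ES groups lay apart from each other and below both XEN-like groups, and the XEN-like groups overlapped. The rise was 2.90-fold in Sox7 (+/-) cells (log2 1.54, 0.90 to 2.18, adjusted p = 0.00095) and 10.1-fold in Sox7 (-/-) cells (log2 3.33, 2.69 to 3.97, adjusted p = 2.7e-06). Without the third Sox7 (+/-) XEN-like array the first was 1.14 on the log2 scale. The responses differed by 1.80 (0.89 to 2.70, adjusted p = 0.0092), by 2.19 without that array, and the call was lost when the 3 Sox7 (+/-) ES arrays were averaged as 1 sample.

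The second tested Lrp2 probe, at chr2:69344263-69344322, was not high on replicate 3, with 1.75, 1.53 and 1.45 in Sox7 (+/-) XEN-like cells. Its log2 Dex response was 2.55 in Sox7 (+/-) cells, a 5.84-fold rise. In Sox7 (-/-) cells the ES arrays were not well above background, so that the rise there was at least 9.66-fold. With that group at background, no difference between the responses is given for this probe. The remaining Lrp2 probe did not pass the filter.

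Dab2, the clathrin adaptor, rose with Dex in Sox7 (-/-) cells, and its response was larger there than in Sox7 (+/-) cells. The probe at chr15:6390616-6390675 of mm9 on the plus strand gave 11.8, 13.2 and 12.04 in Sox7 (+/-) ES cells and 23.3, 23.1 and 22.3 in Sox7 (+/-) XEN-like cells. Sox7 (-/-) ES cells had 7.69, 9.03 and 8.15, and Sox7 (-/-) XEN-like cells had 46.1, 50.4 and 48.3. No groups overlapped, and replicates lay close together. The log2 difference with Dex was 0.89 (0.72 to 1.06, adjusted p = 4.1e-06) in Sox7 (+/-) cells, which is under 2-fold, and 2.54 (2.37 to 2.72, adjusted p = 1.4e-09) in Sox7 (-/-) cells, a 5.83-fold rise. The responses differed by 1.65 (1.41 to 1.90, adjusted p = 4.7e-06). A second Dab2 probe, made to another transcript, was not well above background on any of the 12 arrays.

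Lrpap1 encodes RAP, the chaperone that keeps ligands off newly made LDL receptor family proteins until they leave the endoplasmic reticulum. The brightest probe, printed above, gave 85.9, 86.9 and 77.3 in Sox7 (+/-) ES cells and 146, 149 and 146 in Sox7 (+/-) XEN-like cells. Sox7 (-/-) ES cells had 67.8, 72.0 and 62.8, and Sox7 (-/-) XEN-like cells had 242, 225 and 211. No groups overlapped. Lrpap1 rose 3.35-fold with Dex in Sox7 (-/-) cells (log2 1.74, adjusted p = 2.3e-08), and its log2 difference in Sox7 (+/-) cells was 0.82 (adjusted p = 8.6e-06), under 2-fold. The other probe differed from the first in the Sox7 (+/-) response, with a called log2 rise of 1.41, and in the XEN-like cells, where it read 87.5, 85.1 and 78.9 against 85.3, 82.9 and 80.5. The difference between the responses was 0.92 (adjusted p = 0.00028) by the first probe and 0.27 (adjusted p = 0.066) by the second, both under 2-fold, so the 2 probes of Lrpap1 disagree in XEN-like cells. The difference of the first probe passed 2-fold and was called under quantile normalization (1.20), spike-in scaling (1.32), the deposited table (1.34) and the slide block (1.02).

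Lrp1, the broad scavenger receptor that clears remnant lipoproteins and protease complexes, fell with Dex in both genotypes. Relative signal of its brightest probe (chr10:126975573-126975632 of mm9) was 0.773, 0.978 and 0.805 in Sox7 (+/-) ES cells and 0.187, 0.244 and 0.192 in Sox7 (+/-) XEN-like cells. Sox7 (-/-) ES cells had 1.11, 1.25 and 1.35, and Sox7 (-/-) XEN-like cells had 0.287, 0.186 and 0.228. The XEN-like groups overlapped each other and lay below both ES groups. The fall was 4.11-fold in Sox7 (+/-) cells (log2 -2.04, adjusted p = 2.6e-06) and 5.36-fold in Sox7 (-/-) cells (log2 -2.42, adjusted p = 5.3e-07). The difference between the responses was -0.38 with an interval of -0.92 to 0.15 (adjusted p = 0.26). A second Lrp1 probe was well above background on all 3 Sox7 (-/-) ES arrays and on 1 of 3 Sox7 (+/-) ES arrays. It was so on no XEN-like array, a fall of at least 2.01-fold in Sox7 (-/-) cells. That probe passed the filter only through the Sox7 (-/-) ES cells, where it is high, so its fall there supports nothing. The remaining Lrp1 probe did not pass the filter.

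Vldlr encodes the very low density lipoprotein receptor, which also receives reelin signals together with the product of Lrp8. Its brightest probe (chr19:27324050-27324109 of mm9) gave 1.90, 2.06 and 1.88 in Sox7 (+/-) ES cells and 5.94, 5.74 and 3.31 in Sox7 (+/-) XEN-like cells. Sox7 (-/-) ES cells had 1.81, 1.76 and 1.99, and Sox7 (-/-) XEN-like cells had 4.90, 4.39 and 4.04. ES groups overlapped each other, XEN-like groups overlapped each other, and every XEN-like array was above every ES array. Vldlr rose 2.49-fold in Sox7 (+/-) cells (log2 1.31, adjusted p = 0.00018) and 2.39-fold in Sox7 (-/-) cells (log2 1.26, adjusted p = 2.0e-04). The responses differed by -0.06, with an interval of -0.66 to 0.55. A second Vldlr probe was close to background, and its responses are not given. The Sox7 (+/-) response was 1.59 without the third Sox7 (+/-) XEN-like array, and it lost its call, at 0.83 in each, under spike-in scaling and in the deposited table.

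Lrp8, the gene of the apolipoprotein E receptor 2, was dim, and its brightest probe was well above background in Sox7 (+/-) cells only. Its brightest probe (chr4:107549365-107549424 of mm9) gave 0.117, 0.0619 and 0.162 in Sox7 (+/-) ES cells, with 2 of 3 arrays well above background, and 0.373, 0.276 and 0.179 in Sox7 (+/-) XEN-like cells, with 3 of 3. It was not well above background on any of the 6 Sox7 (-/-) arrays. The probe was tested only because the Sox7 (+/-) XEN-like cells passed the filter. Its fitted rise with Dex in Sox7 (+/-) cells was 2.51-fold (log2 1.33, 0.43 to 2.23, adjusted p = 0.016). That call was lost without Sox7 (+/-) ES replicate 2 (log2 0.94), without Sox7 (+/-) XEN-like replicate 1 (1.08), with the 3 Sox7 (+/-) ES arrays as 1 sample (1.33), and under normexp background correction (0.79), spike-in scaling (0.85) and the deposited table (0.47). A second Lrp8 probe did not pass the filter and was well above background on 5 of 12 arrays, Sox7 (-/-) XEN-like replicate 3 among them.

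Fcgrt encodes the neonatal Fc receptor, which carries immunoglobulin G across the yolk sac endoderm and pairs with beta-2 microglobulin. Its single probe (chr7:52350556-52350615 of mm9) was near background throughout, with 0.105, 0.123 and 0.148 in Sox7 (+/-) ES cells and 0.126, 0.153 and 0.101 in Sox7 (-/-) ES cells. It was not well above background on any XEN-like array, so the falls with Dex are bounds: at least 1.13-fold in Sox7 (+/-) cells and at least 1.57-fold in Sox7 (-/-) cells. The fitted log2 differences were -1.72 (adjusted p = 0.0027 by limma) and -1.31 (adjusted p = 0.012), and the bounds themselves were not tested. Both calls were lost under normexp background correction (log2 -0.21 and -0.35) and in the deposited table (-0.70 and -0.46), and the Sox7 (-/-) call also without Sox7 (-/-) XEN-like replicate 1 (-0.98). B2m, the beta-2 microglobulin gene, is its partner in that receptor, with a mean of 26.3 in Sox7 (+/-) ES, 46.4 in Sox7 (+/-) XEN-like, 15.3 in Sox7 (-/-) ES and 63.4 in Sox7 (-/-) XEN-like cells, and it rose with Dex in Sox7 (-/-) cells (log2 2.05). The log2 difference was 0.78 in Sox7 (+/-) cells, and the difference between the responses, 1.27, was called.

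Between the genotypes in XEN-like cells, the cubilin receptor, its partner and the adaptor were higher without Sox7. Amn was 9.12-fold higher in Sox7 (-/-) XEN-like cells (log2 3.19, 2.94 to 3.44, adjusted p = 8.7e-08), Cubn 5.91-fold (log2 2.56, 1.97 to 3.15, adjusted p = 7.8e-05) and Dab2 2.11-fold (log2 1.08, 0.90 to 1.25, adjusted p = 7.8e-06). Within the slide that held both genotypes the 3 differences were 3.15, 2.53 and 1.11, and without Sox7 (+/-) XEN-like replicate 3 they were 3.31, 2.93 and 1.06. Lrp8 was called lower, by at least 3.48-fold (adjusted p = 0.00042 by limma, for the fitted difference and not the bound). But it was tested only because the Sox7 (+/-) XEN-like cells, where it is high, passed the filter, and it lost its call in the deposited table (log2 -0.94). The comparison thus called 3 of the 9 genes higher, beside 3.87% of all tested probes, and 1 lower, beside 3.64%, with a median log2 difference of 0.42 beside 0.00 over all probes. Lrp2, the megalin gene, was not called: it differed by -0.51 (-1.15 to 0.13, adjusted p = 0.20), by -0.12 without the third Sox7 (+/-) XEN-like array, and by -0.83 (adjusted p = 0.00081) at its second probe, which is under 2-fold. Vldlr differed by -0.13 (-0.56 to 0.30) and Lrp1 by 0.16 (-0.22 to 0.53), and Vldlr differed by -0.40 without that array.

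In ES cells without Dex, Lrp2, Cubn and Lrp8 were called lower in the Sox7 (-/-) line, and with the slide as a block only Lrp2 was. Lrp2 was 4.95-fold lower (log2 -2.31, -2.95 to -1.67, adjusted p = 0.00017) and Cubn 2.15-fold lower (log2 -1.11, -1.69 to -0.52, adjusted p = 0.0071). Lrp8 was at least 1.15-fold lower (adjusted p = 0.0017 by limma, for the fitted difference and not the bound). These 3 of the 9 were called lower, beside 6.67% of all probes, and none was called higher, beside 1.94% (1 higher, Lrp1, at an unadjusted p under 0.05 by limma). Lrp8 passed the filter only through the Sox7 (+/-) XEN-like cells, so its call supports nothing. Among the genes well above background on every array, Lrp2 and Cubn were called lower. Dab2 (-0.58), Amn (-0.42) and Lrpap1 (-0.30) were lower by less than 2-fold, and Lrp1 (0.54) was higher by less than 2-fold, each with adjusted p between 0.00029 and 0.025 by limma, and the differences of Vldlr (-0.07) and Fcgrt (0.01) were not called. The ES groups lay on different slides: with the slide as a block the call held for Lrp2 (log2 -2.48) and was lost for Cubn (-1.22) and Lrp8 (-1.79). The Cubn difference was also not called at the second probe (-0.87), as the mean of both probes (-0.99), without Sox7 (-/-) ES replicate 2 (-0.99) or with the Sox7 (+/-) ES arrays as 1 sample (-1.11), nor that of Lrp8 under normexp background correction (-0.45) or in the deposited table (-0.51).

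**Figure D3:**
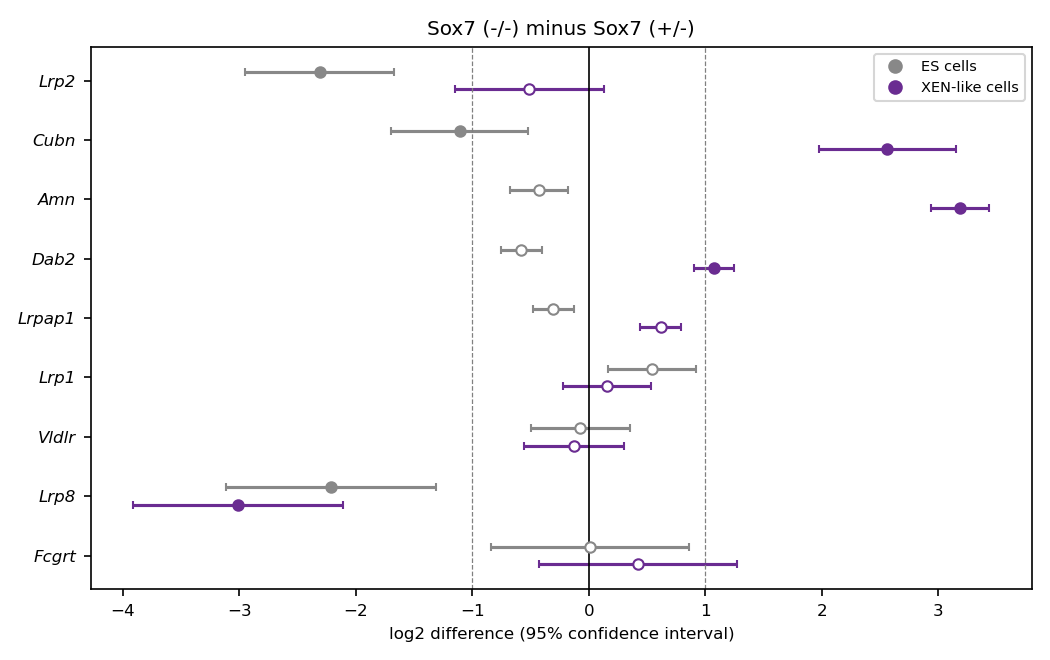
Log2 difference of Sox7 (-/-) minus Sox7 (+/-) cells for the 9 genes, in ES cells without Dex and in XEN-like cells with Dex, from the brightest tested probe. Bars are 95% confidence intervals, filled points are called and dashed lines mark 2-fold. Amn (3.19), Cubn (2.56) and Dab2 (1.08) are higher in Sox7 (-/-) XEN-like cells, and Lrp2 is lower in Sox7 (-/-) ES cells (-2.31) with an interval that spans 0 in XEN-like cells. The fitted values of Lrp8 and Fcgrt rest on groups that were not above background.

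Within the set, patterns were compared over the 12 arrays, which share groups, slides and scaling, so that the correlations are descriptions. Cubn and Amn followed each other (Pearson r = 0.929 of log2 signal over 12 arrays), as did Dab2 and Lrpap1 (r = 0.989). For Lrp2, r was 0.152 with Cubn, -0.134 with Amn, 0.791 with Lrpap1 and 0.780 with Dab2. Lrp1 ran against Vldlr (r = -0.914). Among 18961 other gene names the closest to Amn were Soat2 (r = 0.993), an acyltransferase that makes cholesterol esters, Bend7 (0.989) and Ap1m2 (0.987), the epithelial subunit of the AP-1 clathrin adaptor. Ap1m2 averaged 3.23 in Sox7 (+/-) ES, 0.991 in Sox7 (+/-) XEN-like, 2.55 in Sox7 (-/-) ES and 4.58 in Sox7 (-/-) XEN-like cells. Closest to Cubn were 2810459M11Rik (r = 0.955), Psg23 (0.946) and Eps8l3 (0.944). Closest to Dab2 were Tpcn1, an endolysosomal cation channel (r = 0.997), Fam46a (0.996) and Pparg, the lipid-sensing nuclear receptor (0.995). Closest to Lrp2 were Synj1, the phosphatase that uncoats clathrin vesicles (r = 0.995), Irf4 (0.987) and 1700016D02Rik (0.985). Some of these genes were very dim in a group, so their r rests partly on dim signal. Irf4 averaged 0.0257 and 1700016D02Rik 0.0322 in Sox7 (-/-) ES cells, and Bend7 0.0243 in Sox7 (+/-) XEN-like cells. Eps8l3 averaged 0.031 in Sox7 (+/-) XEN-like and 0.0286 in Sox7 (-/-) ES cells. Group means of Psg23 ran only from 3.48 to 4.73.

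The rest of the uptake machinery was read from 5 lists of genes. The Dex counts of all 5 stand beside shares over all tested probes. These shares were 10.9% called higher and 14% lower in Sox7 (+/-) cells, and 14.5% higher and 14.3% lower in Sox7 (-/-) cells. The counts of the clathrin list lay near or below them. Of 26 tested clathrin coat and adaptor genes, 2 were called higher and 2 lower with Dex in Sox7 (+/-) cells, and 4 higher and 3 lower in Sox7 (-/-) cells. Hip1, a clathrin and actin linker, rose in both (log2 1.11 and 1.497), while the membrane-bending nucleator Fcho1 (-2.36 and -2.58) and the neuronal dynamin Dnm1 (-1.78 and -2.96) fell in both. Myo6, the myosin that moves endocytic vesicles inward and binds Dab2, rose with Dex in Sox7 (-/-) cells (log2 1.94), beside a log2 difference of -0.23 in Sox7 (+/-) cells, and the difference between the responses, 2.18, was called. Of the clathrin and adaptor genes, Myo6 was the 1 called higher in Sox7 (-/-) XEN-like cells (1.33).

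Of 27 early and recycling endosome genes, 2 were called higher and 1 lower with Dex in Sox7 (+/-) cells, and 7 higher and 1 lower in Sox7 (-/-) cells. Clcn5, the endosomal chloride exchanger whose loss impairs megalin and cubilin uptake in kidney, rose in both (log2 1.25 and 2.99), and the responses differed by 1.74 (called). Ehd3, a recycling ATPase, rose in Sox7 (+/-) cells (1.67). Rab11a (1.61) and Rab11fip5 (1.49), of the recycling endosome, rose in Sox7 (-/-) cells. Rab25, the epithelial relative of Rab11, was well above background in both ES groups and not on any XEN-like array. The 10 other tested LDL receptor family genes had 2 called higher and 2 lower with Dex in each genotype. Lrp4 rose (2.42 and 2.32), and Sorl1 (-2.64 and -2.55) and Lrp11 (-1.78 and -2.22) fell in both.

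Ligands of megalin and cubilin, and the chaperones of the family, had 5 of 13 tested genes called higher and 3 lower with Dex in Sox7 (+/-) cells, and 8 higher and 1 lower in Sox7 (-/-) cells. The retinol carrier Rbp4 (log2 2.92 and 3.34) and the plasminogen activator Plat (3.03 and 3.91) rose in both. Apom, an apolipoprotein that megalin takes up, fell and rose as Cubn and Amn did. Its means were 2.08 in Sox7 (+/-) ES, 0.335 in Sox7 (+/-) XEN-like, 0.417 in Sox7 (-/-) ES and 5.37 in Sox7 (-/-) XEN-like cells. Apom fell by 2.66 on the log2 scale in Sox7 (+/-) cells and rose by 3.70 in Sox7 (-/-) cells, and the difference of 6.36 was called. The thyroid hormone carrier Ttr was 2.06 in Sox7 (+/-) and 6.12 in Sox7 (-/-) XEN-like cells and was not well above background in Sox7 (-/-) ES cells. Transferrin, Trf, fell in both (-3.06 and -3.19), with 2 of 3 Sox7 (+/-) XEN-like arrays well above background. Of 18 other uptake receptors and partners, 4 were called lower with Dex in Sox7 (+/-) cells and no other was called. In Sox7 (-/-) cells 4 were called lower and 2 higher, B2m and the sodium-proton exchanger Slc9a3. Slc9a3 was not well above background in the other 3 groups. It was tested only because the Sox7 (-/-) XEN-like cells, where it is high, passed the filter, so its call supports nothing.

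**Figure D4:**
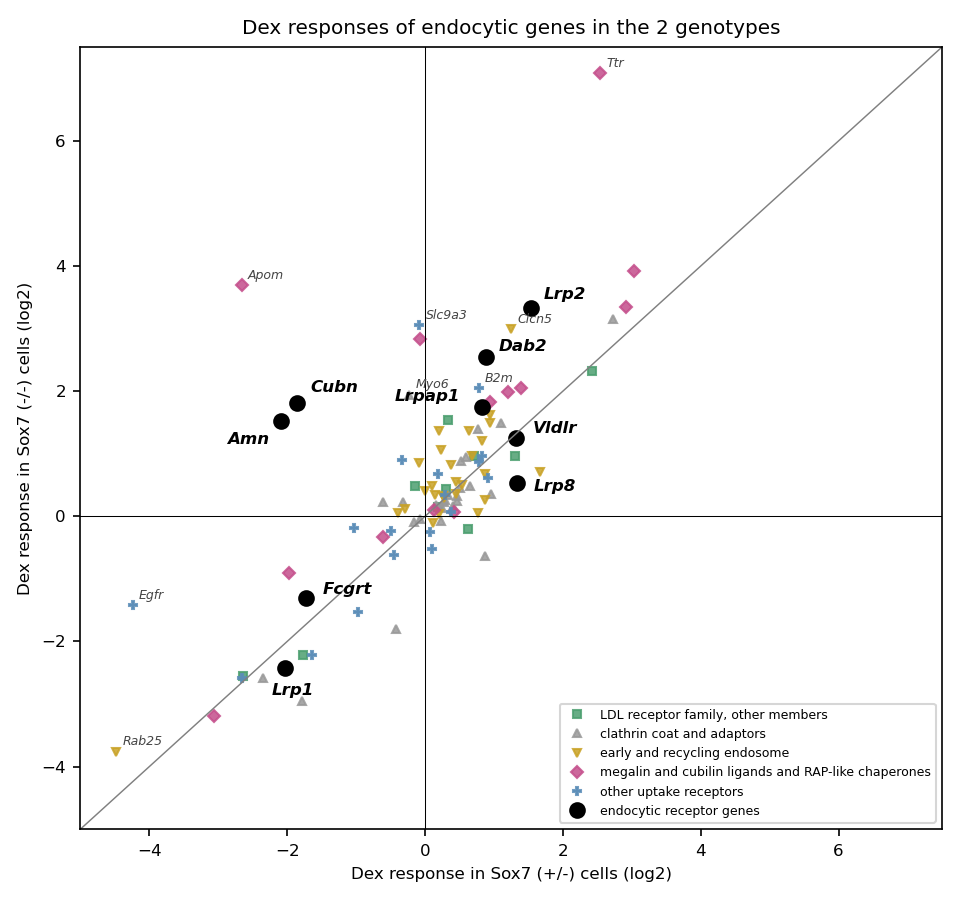
Fitted Dex response in Sox7 (+/-) cells (horizontal) against that in Sox7 (-/-) cells (vertical), in log2 units, for the 9 genes (black) and the tested genes of 5 endocytic lists, with the line of equal response. Cubn, Amn and Apom lie in the upper left, where the response is below 0 in Sox7 (+/-) and above 0 in Sox7 (-/-) cells. Values of genes that were not above background in a group, such as Slc9a3, Rab25, Ttr and Egfr, are fitted values only.

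Markers of several cell types, though not of all, differed between the same groups. Of 6 tested mesoderm and fibroblast markers none was called between the XEN-like groups, and of 5 neural markers 1 was called higher and 1 lower. Of 10 ES cell markers, 2 were called higher in Sox7 (-/-) than Sox7 (+/-) XEN-like cells, Esrrb (means of 4.20 and 0.170) and Zfp42 (5.63 and 2.61), and the summed signal of the list was 616.8 to 660.2 and 583 to 739.6. Most of these sums was Dppa5a, with means of 555.6 in Sox7 (-/-) and 587 in Sox7 (+/-) XEN-like cells, so they say little of the other markers. Between the ES groups, where Lrp2 and Cubn were lower in Sox7 (-/-) cells, 3 of the 10 ES cell markers were called higher (Klf4, Esrrb and Zfp42), with sums of 839 to 858 in Sox7 (+/-) and 1154 to 1282 in Sox7 (-/-) cells. There, 5 of 14 parietal endoderm markers were called lower (Thbd, Krt19, Pth1r, Fst and Plat), with sums of 1614 to 1669 and 1273 to 1363, and 6 of 14 visceral endoderm markers were called lower and 1 higher. Of 14 tested visceral endoderm markers other than the 9 genes, of 16 listed, 7 were called between the XEN-like groups, and each of these 7 was higher in the Sox7 (-/-) cells, among them Cldn6 (log2 1.77) and Cdh1 (1.82). Their summed relative signal was 116 to 137 in Sox7 (+/-) XEN-like and 209.6 to 219 in Sox7 (-/-) XEN-like cells, and 129 to 132 and 45.25 to 47.88 in Sox7 (+/-) and Sox7 (-/-) ES cells. With Dex, 4 of the 14 visceral markers were called higher and 4 lower in Sox7 (+/-) cells, and 9 higher and 3 lower in Sox7 (-/-) cells. For the difference between the Dex responses, 11 of the 14 were called higher in Sox7 (-/-) cells, among them Cldn6 (4.75) and Ihh (3.46), each well above background on all 12 arrays. Ttr was called too, but its size has no exact value, since it was not well above background in Sox7 (-/-) ES cells. Cdh1, the epithelial cadherin, which ES cells also express, fell with Dex in both genotypes (-3.82 in Sox7 (+/-) and -2.23 in Sox7 (-/-) cells). The visceral list shares Ttr, Rbp4, Apob and Trf with the ligand list, and the parietal list shares Plat with it. Of 7 tested trophoblast markers, of 9 listed, 5 were called, all higher in Sox7 (-/-) XEN-like cells, with summed signal of 2.35 to 3.07 in Sox7 (+/-) and 6.18 to 6.85 in Sox7 (-/-) XEN-like cells. The trophoblast genes Elf5 and Tpbpa did not pass the filter. The trophoblast sum was higher in Sox7 (+/-) ES cells, at 11.45 to 11.57, than in any XEN-like array. Of 14 parietal endoderm markers, 12 were called higher with Dex in Sox7 (+/-) cells and 11 in Sox7 (-/-) cells, and between the XEN-like groups 1 was called (Vim, log2 -1.16), with sums of 4053 to 4447 in Sox7 (+/-) and 3466 to 3665 in Sox7 (-/-) cells. Of the Sox7 (+/-) XEN-like arrays, replicate 3 had the lowest visceral sum (116, against 128.5 and 137) and trophoblast sum (2.35, against 2.50 and 3.07). The sum of the 18 other uptake receptors and partners was 635.9 on that array, against 334.1 and 326.1. Its sum of 6 primitive endoderm regulators was the lowest (146.4, against 187.1 and 179.3). Its ES cell marker sum was the highest (739.6, against 583.1 and 607.9), and its parietal sum lay between the others (4119, against 4053 and 4447). The part of these cell types in the levels of Cubn, Amn, Lrp2 and Dab2 was not tested. These lists were written with results of these arrays known, and their counts are not independent evidence of a direction.

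**Figure D5:**
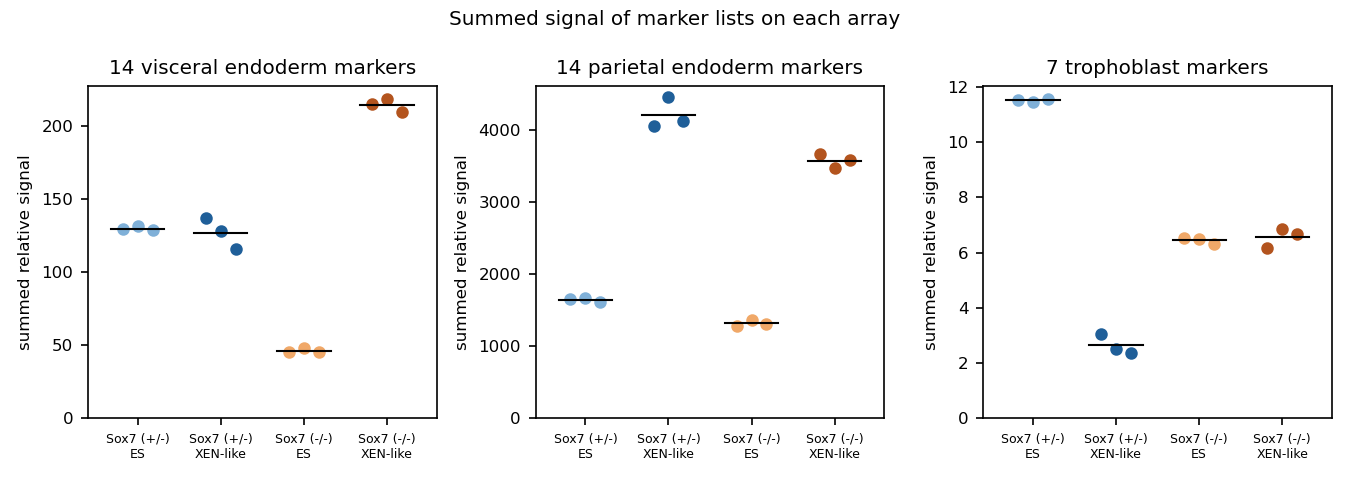
Summed relative signal on each of the 12 arrays of 14 visceral endoderm markers (the 9 genes left out), 14 parietal endoderm markers and 7 trophoblast markers, with the horizontal line at the mean of a group. The visceral sum is highest in Sox7 (-/-) XEN-like cells (209.6 to 219) and lowest in Sox7 (-/-) ES cells (45.25 to 47.88), and the parietal sum is high in both XEN-like groups.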

How the data were processed

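Agilent 1-colour arrays of 12 samples were scanned and read with Agilent Feature Extraction 10.7.3.1, per the submitters' processing notes. The deposited files give, for each spot, a processed intensity (background-subtracted by that program), and the flags for well above background. The deposited series table held intensity that lay within 0.498% of the mean spot signal and was not normalized; it was used only as an alternative. Its columns were matched to samples by title.

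Spots of a probe were averaged, the log2 of the deposited processed intensity was taken, and the 75th percentile of the array was subtracted. Depth on arrays is set by their number, 3 a group. A probe was kept where some group had it well above background on each of its 3 arrays, and limma 3.58.1 in R 4.3.3 was run on the kept probes (1 fit of the 4 groups) with Benjamini-Hochberg adjustment over 25938 probes, and called at an adjusted p under 0.05 and over 2-fold. The study's own array analysis tool was not used here. Where no array of a group was well above background, "at least" folds set the bright group's mean against the higher of the dim value and the lowest signal well above background on each array, as means of normalized log2 values. Each gene is given by its brightest probe, and other probes are named. Genes named were the 9 with all their probes, the 3 most similar genes to Lrp2, Cubn, Amn and Dab2, up to 3 called rises and 3 called falls per list and comparison, and list genes below background. Genes named beyond that rule were chosen after their values were seen.

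The members and the gene lists were chosen with earlier results of these data known. Alternatives were normexp background correction, quantile, median and spike-in scaling, the deposited table, other filters, the mean over probes, no minimum fold, trend and robust prior, only the groups compared, leaving out each array, the replicate number as a block, and the slide as a block or within a slide. Averaging the 3 Sox7 (+/-) ES arrays as 1 sample was chosen after seeing the data. The fit was tested on simulated data with independent noise. These had no slide effect, technical repeats or array that stood apart, so that test says nothing of those limits. Promoter windows are RefSeq sequence on GRCm38.p6, and probe positions are mm9 as in the array files. Some genes of the lists are not reported here by name.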

Additional observations from a re-analysis of the deposited data

Results flagged for a closer look

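The Dex response differed between Sox7 (-/-) and Sox7 (+/-) cells by the test of the difference itself for 4 of the 9 genes. The log2 difference was 3.67 for Cubn and 3.61 for Amn, whose response was below 0 in Sox7 (+/-) and above 0 in Sox7 (-/-) cells. It was 1.80 for Lrp2 and 1.65 for Dab2, whose response was above 0 in both. All 6 Sox7 (-/-) arrays and all 6 Sox7 (+/-) arrays entered each test, with 3 a group.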

How the results depend on the processing

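Of 944 values of single genes recomputed under the alternatives, 909 kept their side of the threshold, 22 lost a call, 13 gained one and none of the called values reversed. The 909 include uncalled values that changed sign. For Lrp1 the difference between the responses was -0.38 in the main fit and 0.02 under spike-in scaling. For the Dex response of Sox7 (+/-) cells, 4 genes were called in the deposited table in place of 7. For the genotype difference in ES cells, the count of 3 became 7 without a minimum fold and 1 under a slide block, and the cause was not tested for the table or the slide. Leaving out each array in turn gave 6 to 7 genes for the Dex response in Sox7 (+/-) and 7 to 8 in Sox7 (-/-) cells, 4 to 4 for XEN-like cells, 2 to 3 for ES cells and 4 to 4 for the difference between the responses. Same-numbered arrays did not deviate together (r of -0.0509 to 0.126), so the numbers do not pair the samples, and with the replicate number as a block the counts were 7, 8, 4, 3 and 4 in the same order. Spike-in scaling moved the median of all tested probes from 0.15 to -0.33 for the Dex response in Sox7 (+/-) cells, from 0.00 to 0.25 for XEN-like cells and from -0.09 to 0.31 for the difference between the responses, and the deposited table moved them to -0.23, 0.34 and 0.24. The filter on all 12 arrays leaves out Lrp8 and Fcgrt, and neither the ES comparison nor the difference between the responses could be run within a slide. Lrp8, Fcgrt and the second Vldlr probe lie close to background, which limits their folds.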
